A study of Homo sapiens with 44 samples.

Results

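The response of ZR-75-1 breast cancer cells to 8 h of medroxyprogesterone acetate (MPA) was described from 6 arrays, 3 of MPA and 3 of the ethanol vehicle overlaid for the same 8 h, chosen by their titles out of 44 arrays in 14 groups. ZR-75-1, used at passage 16, is a long established line of luminal breast cancer cells with receptors for both ovarian hormones. Every culture of both groups had first been grown for 72 h with 10 nM estradiol (E2) in phenol red free medium with hormone stripped serum. That medium was left on the cells, and 10 nM MPA or ethanol was added to it. Such estrogen pretreated cells are called E2p, so the vehicle arrays are estrogen exposed cells without a progestin and not untreated cells. All arrays come from 1 cell line, and the labels number the replicates without tying them to separate cultures. The p-values therefore speak of the spread among arrays, pooled over all 44 and not taken from the 6 alone. Part or all of that spread may be technical.

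Progestins act mainly through the progesterone receptor, a transcription factor held by chaperones until hormone binds it, after which it binds DNA and recruits coactivators or corepressors. In breast cells the receptor gene is itself a target of the estrogen receptor, which is why estrogen exposure is used to prime cells for a progestin. MPA is a synthetic progestin with a methyl and an acetoxy substituent that are not found on natural progesterone (P4), and it is known to bind other steroid receptors too, among them the androgen receptor.

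Values are normalized transcript levels on the log2 scale, so a difference of 1 is 2-fold. The array reports transcript clusters, of which 41374 entered the tests, and 13466 named genes were each represented by the cluster of highest mean level. Array medians lay between 5.52 and 5.67 over the whole series, and on the 6 arrays the 30th percentile, used here as the background level, lay between 4.48 and 4.53. Arrays correlated at 0.986 to 0.992 within a group and at 0.980 to 0.986 between MPA and vehicle. Interquartile ranges were 3.00, 3.04 and 2.99 for MPA and 3.11, 3.09 and 3.03 for vehicle. The 8 h vehicle arrays differed from the other vehicle overlays at 59 clusters (0.143% of those tested) and 23 named genes (0.171%).

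The arrays carried luminal epithelial transcripts as the line should. Under vehicle, KRT18, KRT19, EPCAM, GATA3, FOXA1 and PGR stood at percentiles of 95.6 to 99.1 among named genes and ESR1 at 89.6, whereas the luminal keratin gene KRT8 stood at 56.3 on this array. Of the endothelial markers, 6 of 9 listed were measured and 0 were regulated, with levels from 5.00 to 6.68 under vehicle. Of the immune markers, 4 of 10 were measured and 0 were regulated, and CD68 was the highest of them at 8.55. Over all named genes 22.6% were regulated, so 0 calls in lists this short say little. Of the fibroblast markers, 3 of 11 were measured, and FN1, the highest at 8.23 under vehicle, was lower under MPA.

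After 8 h of MPA, 5901 clusters were regulated (14.3% of those tested, limma's moderated test with a Benjamini-Hochberg adjusted p of at most 0.05), 2608 of them higher (6.30%) and 3293 lower (7.96%). Among named genes, 3040 were regulated (22.6%), 1356 higher (10.1%) and 1684 lower (12.5%). Larger changes leaned the other way, since 253 genes were at least 2-fold higher (1.88%) and 132 at least 2-fold lower (0.980%). The median change over all named genes tested was -0.01. Counts of the gene lists below are to be read against 10.1% higher and 12.5% lower over all named genes. A count near those shares says little about a list. Of all regulated clusters 44.2% were higher, but a fit with each array's interquartile range as a covariate turned the majority, with 3714 higher and 3231 lower. GAPDH, a glycolytic enzyme gene often used as a reference, was 9.65, 9.76 and 9.66 under vehicle and 9.65, 9.61 and 9.60 under MPA, a change of -0.07 ± 0.06 (SE, adjusted p = 0.571).

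**Figure D1:**
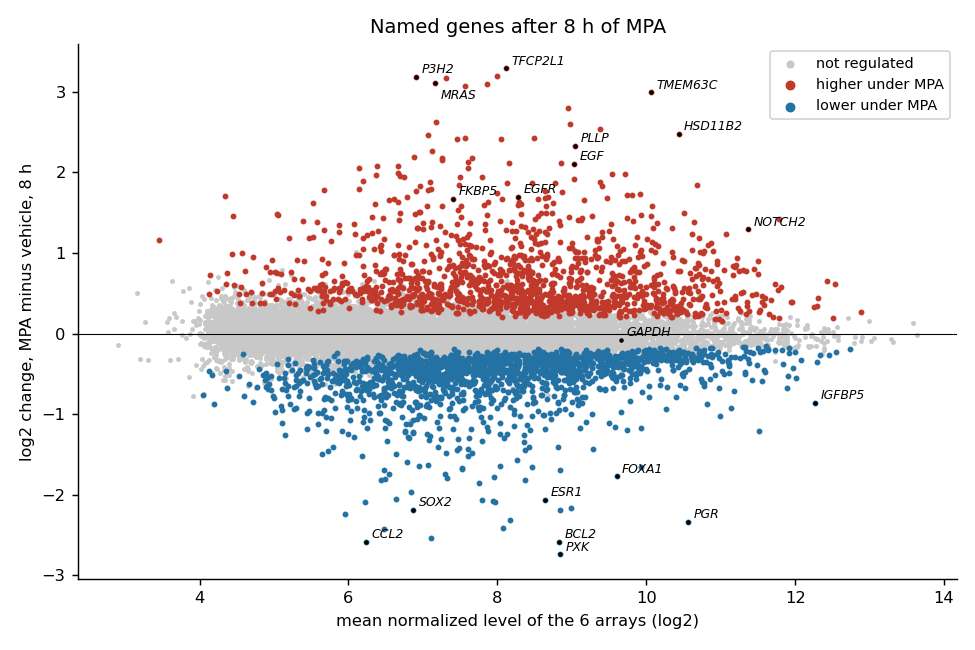
Change after 8 h of MPA (log2, MPA minus vehicle, y axis) against the mean level of each named gene on the compared arrays (log2, x axis), with regulated genes coloured. TFCP2L1, P3H2 and MRAS lie at 3.29, 3.18 and 3.11, PGR and ESR1 at -2.33 and -2.06, and the median over all genes is -0.01.

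The 12 largest increases were led by TFCP2L1, which encodes a transcription factor of the CP2 and grainyhead family that is known from kidney epithelium and from pluripotent stem cells. Its level was 6.45, 6.36 and 6.61 on the vehicle arrays and 9.76, 9.77 and 9.77 on the MPA arrays. The groups did not overlap, and the level rose 9.78-fold (log2 change 3.29 ± 0.16, SE, n = 3 per group, adjusted p = 3.7e-17). P3H2, which encodes an enzyme that hydroxylates prolines in collagen, went from 5.30, 5.43 and 5.22 to 8.46, 8.53 and 8.51. This was a 9.09-fold rise (3.18 ± 0.17, adjusted p = 2.55e-16), again without overlap. MRAS, a RAS-like GTPase gene whose product forms a complex with SHOC2 and a phosphatase that acts on RAF kinases, stood at 6.01, 5.19 and 5.64 under vehicle and at 8.72, 8.68 and 8.77 under MPA. The vehicle arrays spread far more (SD 0.41) than the MPA arrays (SD 0.04), and the 8.65-fold rise (3.11 ± 0.25, adjusted p = 1.49e-11) exceeded both.

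The remaining large increases came from genes of different function. HS3ST6, a heparan sulfate sulfotransferase gene, rose by 3.20 ± 0.13, from 6.55, 6.30 and 6.34 to 9.47, 9.62 and 9.70. STEAP4, a metalloreductase gene known as androgen responsive in prostate cells, rose by 3.18 ± 0.20 and ZBTB7C, a zinc finger repressor gene, by 3.07 ± 0.17. The smallest adjusted p in the set belonged to TMEM63C, which encodes a membrane protein related to osmosensitive channels and rose by 2.99 ± 0.09 (adjusted p = 2.23e-22). UNC5B, a netrin receptor gene, rose by 2.79 ± 0.14, the desmosomal plakophilin gene PKP1 by 2.62 ± 0.24, ACSL1, an enzyme that activates long chain fatty acids, by 2.60 ± 0.12, and MMP15, a membrane bound matrix metalloproteinase, by 2.54 ± 0.16. All 12 genes had their 3 MPA arrays above their 3 vehicle arrays, an arrangement that 18.2% of all named genes tested showed.

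The microRNA gene MIR21 was among these 12. It stood at 6.22, 6.58 and 6.12 under vehicle and at 9.35, 9.35 and 9.52 under MPA, a rise of 3.10 ± 0.27 (adjusted p = 5.97e-11). The array probes the precursor or its host transcript, and the mature microRNA was not measured. Of 15 measured microRNA genes 5 were higher and 3 lower, and the count of higher genes fell to 3 without the second MPA array and also without the third vehicle array. MIR181B1 fell by 1.96 ± 0.18, from 7.57, 8.02 and 7.88 to 5.80, 5.77 and 6.03, and its host transcript MIR181A1HG fell by 1.74 ± 0.15. MIR205, known from basal epithelial cells, fell by 0.91 ± 0.12, from 8.66, 8.66 and 8.57 to 7.68, 7.80 and 7.67. The groups of each of these microRNA genes were separate. The mature strands that RefSeq (GRCh38.p14) lists as the 5p arm of the member that rose and of those that fell most are shown with their seed, bases 2 to 8, in capitals, since the seed sets which transcripts a microRNA pairs with. The seeds were all different. In the genome miR-21-5p lies at chr17:59841273-59841294 (plus strand), this copy of miR-181b-5p at chr1:198858925-198858947 (minus strand) and miR-205-5p at chr1:209432166-209432187 (plus strand).
hsa-miR-21-5p: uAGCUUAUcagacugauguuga
hsa-miR-181b-5p: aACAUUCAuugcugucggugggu
hsa-miR-205-5p: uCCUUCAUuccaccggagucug

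**Figure D2:**
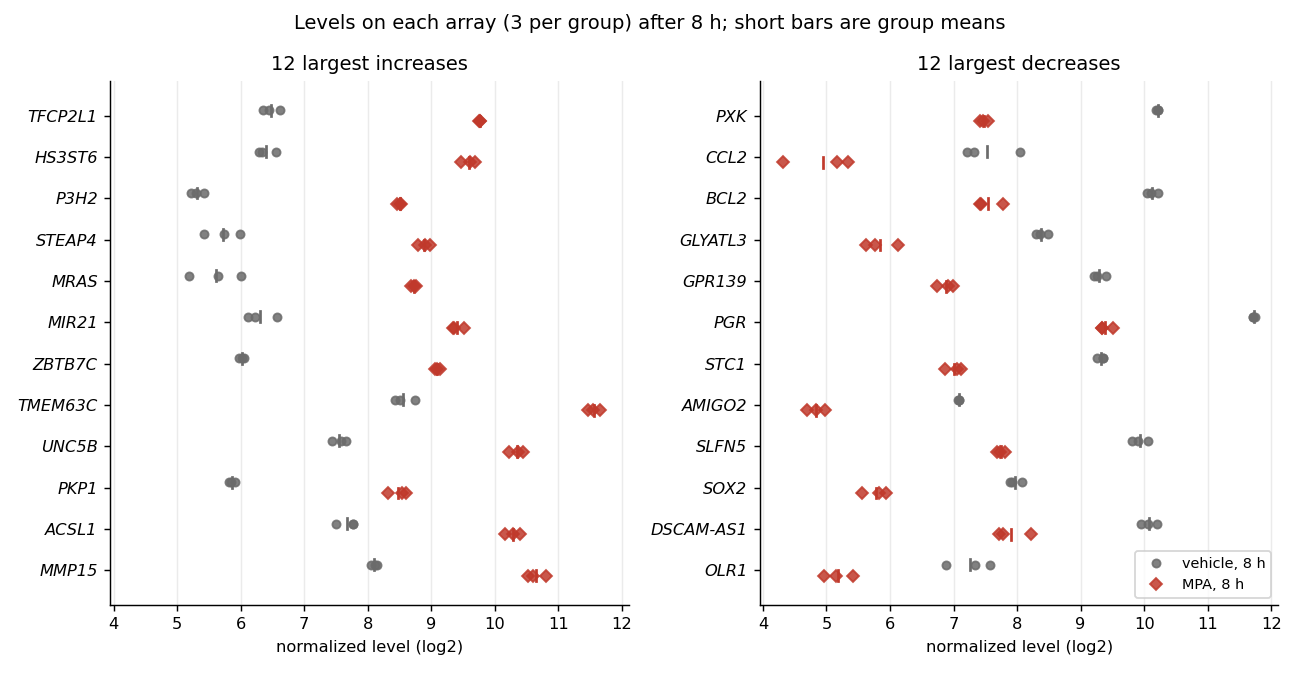
Normalized level (log2, x axis) on each of the 3 vehicle and 3 MPA arrays for the 12 largest increases (left) and the 12 largest decreases (right) at 8 h, with short bars at group means. The groups of all 24 genes are separate by the array values, with TFCP2L1 near 9.77 on each MPA array and PGR near 11.72 on each vehicle array.

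The largest decrease was in PXK, which encodes a phox domain protein with a kinase-like fold involved in receptor trafficking. It was 10.19, 10.23 and 10.22 under vehicle and 7.41, 7.54 and 7.47 under MPA, a fall of 2.74 ± 0.10 on the log2 scale (adjusted p = 3.55e-20). CCL2, a monocyte chemoattractant gene, fell by 2.58 ± 0.37, and it had the widest spread of this set, with vehicle arrays at 8.04, 7.21 and 7.33 and MPA arrays at 5.17, 5.34 and 4.32. BCL2, the founding inhibitor of apoptosis and in breast an estrogen responsive gene, went from 10.22, 10.11 and 10.05 to 7.41, 7.77 and 7.44, a fall of 2.58 ± 0.17. Arrays of the groups were separate in all 12 leading decreases, as they were in that direction for 23.4% of named genes tested.

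The other leading decreases came from genes of different function. GPR139, an orphan G protein-coupled receptor gene, fell by 2.41 ± 0.13, and SOX2, a pluripotency transcription factor gene, fell by 2.18 ± 0.19, from 8.08, 7.91 and 7.89 to 5.56, 5.94 and 5.83. GLYATL3, of the glycine acyltransferase family, fell by 2.54 ± 0.25, the secreted glycoprotein gene STC1 by 2.31 ± 0.26. AMIGO2, an adhesion molecule gene, fell by 2.24 ± 0.20. SLFN5 fell by 2.19 ± 0.16, the lncRNA gene DSCAM-AS1, which is known as estrogen receptor dependent in breast cancer, by 2.17 ± 0.26, and OLR1, a receptor for oxidised lipoprotein, by 2.09 ± 0.17. C6orf141, whose change lay in the same range, was passed over because its symbol names only a reading frame.

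Both steroid receptor genes of the line fell. PGR, the progesterone receptor gene, stood at 11.71, 11.72 and 11.74 under vehicle and at 9.34, 9.50 and 9.34 under MPA, and the level under vehicle was 5.04 times that under MPA (log2 change -2.33 ± 0.13, adjusted p = 1.05e-15). ESR1, the estrogen receptor gene, went from 9.72, 9.55 and 9.75 to 7.57, 7.71 and 7.55, a 4.18-fold lower level (-2.06 ± 0.11, adjusted p = 8.99e-16). Neither gene's groups overlapped. Of 10 measured steroid receptors and coregulators 2 were higher and 3 lower, since the coactivator genes NCOA1 and EP300 rose by 0.55 ± 0.07 and 0.38 and the corepressor gene NRIP1 fell by 0.51 ± 0.08. Without the second or the third MPA array, or without the first or the third vehicle array, 1 was higher.

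The measured members of the luminal transcription factor list all moved. The list also holds the alveolar factor ELF5, and it shares MYB and XBP1 with the estrogen-induced targets. Of 13 measured members 10 were lower and 3 higher, with a median change of -0.63 against -0.01 over all named genes. FOXA1, a pioneer factor that the estrogen receptor needs to reach its sites, fell by 1.77 ± 0.16, from 10.52, 10.52 and 10.43 to 8.70, 8.68 and 8.76. MYB, a proto-oncogene transcription factor, fell by 1.40 ± 0.15 and EHF, an epithelial ETS factor, by 1.03 ± 0.09. GATA3, a master regulator of luminal differentiation, changed by -0.67. The 3 members that went up were KLF5 (0.80), SPDEF (0.44) and GRHL2 (0.36).

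Known estrogen targets moved down more often than up. Of 21 measured estrogen-induced targets 13 were lower and 3 higher (median -0.42), where 12.5% of all named genes were lower. PGR led them, followed by MYB, then by the chemokine gene CXCL12, which fell by 1.35 ± 0.15 from 9.07, 9.26 and 8.78 to 7.76, 7.63 and 7.68, and by the scaffold gene PDZK1, which fell by 1.21 ± 0.18. The 3 targets that rose were CA12 (0.48), GFRA1 (0.45) and GREB1 (0.44). TFF1, the classical target, changed by -0.17 and did not pass. A separate view came from the priming itself, measured on the 16 h vehicle and unprimed arrays, which are none of the 6 arrays compared here. Of 528 named genes that E2 priming had raised (3.92% of those tested), 205 (38.8%) were lower and 70 (13.3%) higher after MPA. Among 1108 that priming had lowered (8.23%), 229 (20.7%) were lower and 285 (25.7%) higher, and among 11830 not called for priming the shares were 10.6% and 8.46%. TFCP2L1 (0.09 ± 0.16) and BCL2 (-0.02 ± 0.17) were not called for priming.

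Targets known from progestin-treated cells moved up. Of 17 measured progestin-induced targets 12 were higher and 1 lower, with a median of 1.18, and the list was drawn up with results of these data already known. HSD11B2, the enzyme that inactivates cortisol, rose 5.56-fold (2.48 ± 0.10), from 9.20, 9.32 and 9.06 to 11.77, 11.61 and 11.63. FKBP5, an immunophilin of the receptor chaperone complex, rose 3.18-fold, from 6.46, 6.80 and 6.45 to 8.19, 8.29 and 8.24 (1.67 ± 0.14, adjusted p = 1.45e-11). SEPTIN4, a septin gene, rose by 1.70 ± 0.10, although by 0.87 when all of its clusters were averaged. The kinase gene SGK1 rose by 1.40 ± 0.19 and the signal transducer gene STAT5A by 1.34 ± 0.20. The exception was ELF5, an alveolar ETS factor, at -0.63.

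Of 15 listed androgen-induced targets only 6 were measured. Of these 6, 3 were higher and 0 lower, against 10.1% higher over all named genes. The 3 that rose were STEAP4, NDRG1 and KLK3, the prostate specific antigen gene. NDRG1, a stress responsive gene also induced by hypoxia, rose by 2.43 ± 0.14 from 6.37, 6.31 and 6.36 to 8.68, 8.77 and 8.88. KLK3 rose by 0.44 ± 0.12 (adjusted p = 0.00794), and without the second MPA array by 0.34 with an adjusted p of 0.0901. KLK2 (0.12) and KLK4 (0.04), from the same gene cluster, did not pass.

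The family of TFCP2L1 did not move as a unit. Of 6 measured members of the CP2 and grainyhead family 3 were higher and 2 lower. GRHL1, known from epidermal differentiation, rose by 0.45 ± 0.12 and GRHL2 by 0.36, whereas UBP1 fell by 0.57 ± 0.10 and TFCP2 itself changed by -0.07 without passing. GRHL3 stood between 6.92 and 7.01 on the 3 vehicle arrays and at 6.63, 5.93 and 6.16 under MPA, with MPA array 1 well above the other two. Its change of -0.74 ± 0.22 (adjusted p = 0.0195) did not pass when the second or the third MPA array was left out (adjusted p = 0.138 and 0.0708) or the first or second vehicle array (0.0625 and 0.0597).

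MRAS stood apart within its own list as well. Of 11 measured RAS and RAP GTPases and their regulators 3 were higher and 2 lower, and none of the others changed by more than 0.47 in size. SOS1, an exchange factor for RAS, rose by 0.41 ± 0.09 and SHOC2, the scaffold with which MRAS works, fell by 0.34. RASGRP1, another exchange factor, rose by 0.40 ± 0.12, and this was not called without the third MPA array (0.33, adjusted p = 0.121) or the second vehicle array (0.38, adjusted p = 0.0709). RAP1GAP, which switches off RAP GTPases, fell by 0.47 ± 0.14 and was not called without the first or the third MPA array (adjusted p = 0.0549 and 0.0919), without the first or second vehicle array (0.121 and 0.0781), or with that covariate for array interquartile range (0.0507).

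Matrix enzymes around P3H2 moved in both directions. Of 13 measured collagen hydroxylases and matrix enzymes 3 were higher and 5 lower, and 3 and 3 without the first MPA array or with the compared arrays alone. Besides P3H2 and MMP15 the metalloproteinase inhibitor gene TIMP3 rose by 0.75 ± 0.13, or by 0.47 as the mean of its clusters. LOXL1, which cross-links elastin and collagen, fell by 0.52 ± 0.10. The paralogs of P3H2 went the other way or did not pass, since P3H4 changed by -0.49 and P3H3 by -0.40, both called, and P3H1 by 0.07. Among 15 heparan sulfate and glycan enzymes, the list of HS3ST6, 4 were higher and 3 lower. HS3ST3B1 rose by 0.98 ± 0.15 and XYLT1, which starts the chains, by 0.71 ± 0.14, while HS3ST3A1 fell by 0.75 ± 0.16.

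**Figure D3:**
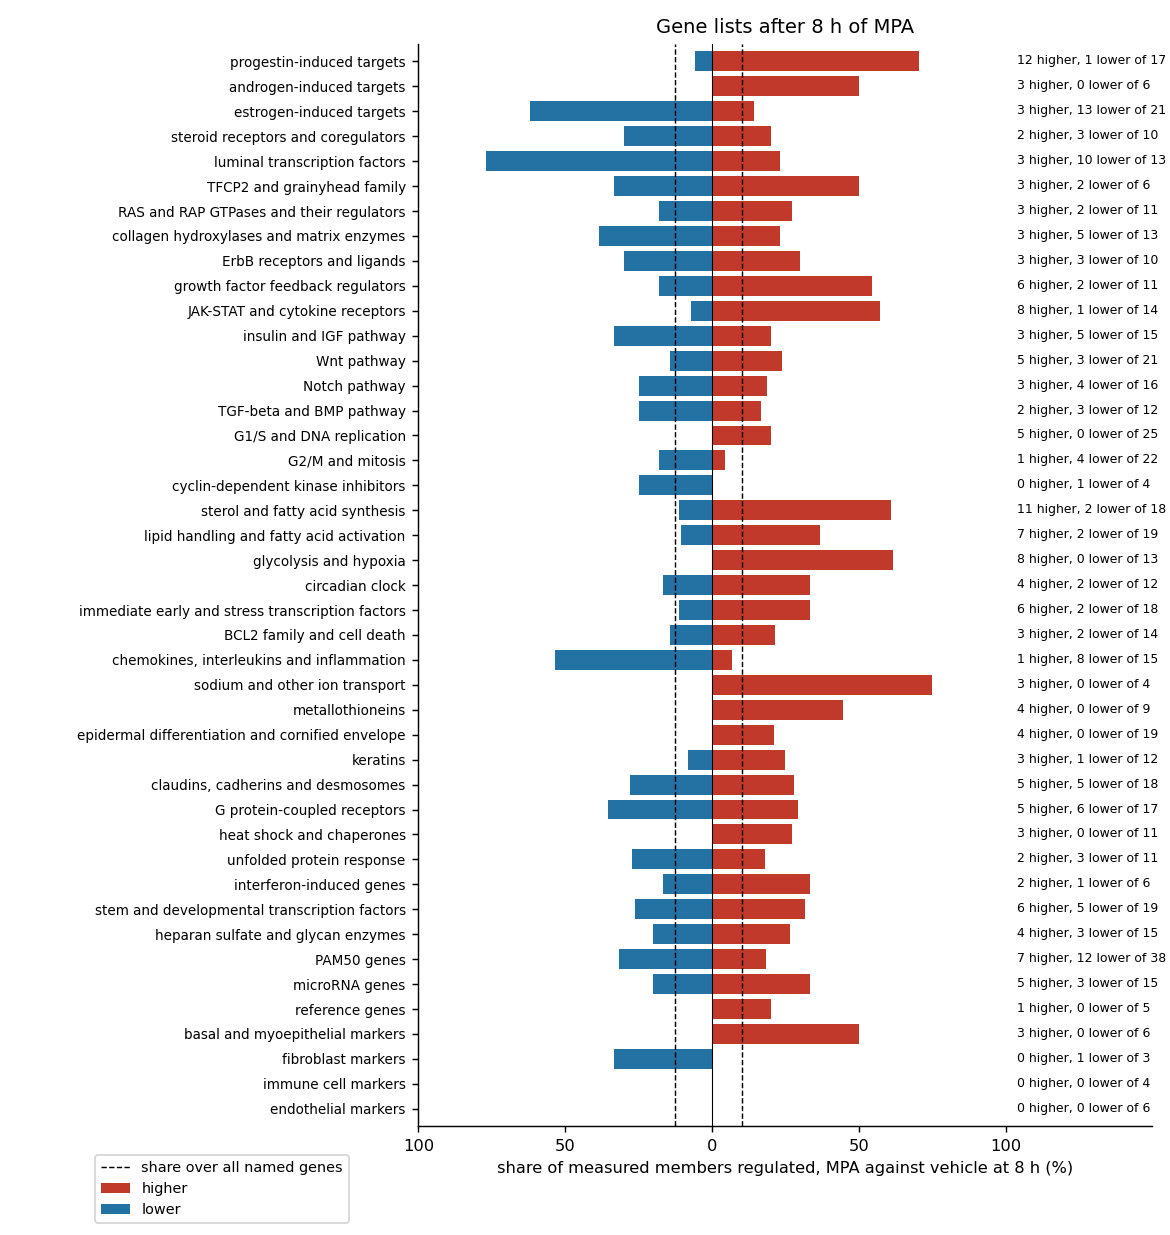
Share of the measured members of each gene list regulated at 8 h of MPA (%, x axis), lower to the left and higher to the right, with dashed lines at the shares over all named genes (12.5% lower and 10.1% higher) and the counts at the right. Luminal transcription factors and estrogen-induced targets reach furthest to the left, and ion transport and progestin-induced targets furthest to the right. The ion transport bar rests on 4 measured of 18 listed genes, and its member SGK1 is also a progestin-induced target.

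Growth factor genes changed on the side of ligands, receptors and feedback inhibitors. EGF, the epidermal growth factor gene, rose 4.30-fold, from 8.04, 7.98 and 7.92 to 9.96, 10.14 and 10.15 (2.10 ± 0.10, adjusted p = 3.07e-17). Its receptor gene EGFR rose 3.24-fold, from 7.53, 7.40 and 7.35 to 9.09, 9.12 and 9.17 (1.70 ± 0.11, adjusted p = 4.58e-14). The groups of both genes were far apart relative to their spread. NRG4, a neuregulin gene, rose by 0.92 ± 0.18, whereas ERBB4, the receptor for neuregulins, fell by 1.03 ± 0.15 from 8.35, 8.27 and 8.29 to 6.91, 7.46 and 7.43. In all, 3 of 10 measured ErbB receptors and ligands were higher and 3 lower, against 10.1% and 12.5% of all named genes.

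Of 11 feedback regulators of growth factor signalling 6 were higher and 2 lower. SPRY4, an inhibitor of the RAS to MAPK route, rose by 1.60 ± 0.21, ERRFI1, a direct inhibitor of EGFR, by 1.18 ± 0.16, the phosphatase gene DUSP4 by 1.06 ± 0.10, and LRIG1, which promotes degradation of ErbB receptors, by 1.03 ± 0.06. Those that fell were CISH (-0.49) and SOCS3 (-0.35), both inhibitors of cytokine receptors, and 1 was lower without the second or the third MPA array or the first or the third vehicle array. Cytokine receptor signalling genes themselves were higher in 8 of 14 and lower in 1, the prolactin receptor gene PRLR at -0.60. LIFR, a receptor subunit for leukaemia inhibitory factor, rose by 1.95 ± 0.23, from 5.73, 5.96 and 5.61 to 7.65, 7.83 and 7.66, and JAK2, the kinase below it, by 1.59 ± 0.22. STAT3 rose by 0.61 ± 0.06, from 11.45, 11.39 and 11.40 to 11.99, 12.02 and 12.07, a small change with little spread.

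The insulin and IGF pathway had 3 higher and 5 lower of 15 measured (median -0.04), and 1 higher without the second MPA array or without the third vehicle array. The shares over all named genes were 10.1% higher and 12.5% lower. IRS1, the main adaptor of the insulin and IGF1 receptors, fell by 1.57 ± 0.14, from 9.06, 9.03 and 9.04 to 7.37, 7.58 and 7.47. IGF1R, the receptor gene, fell by 0.81 ± 0.09 and IGFBP5, a secreted binding protein gene, by 0.86 ± 0.07, while the adaptor gene GRB10 rose by 0.99 ± 0.09.

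Wnt and Notch genes gave calls in both directions. FZD8, a Wnt receptor gene, rose by 2.41 ± 0.10, from 6.73, 6.83 and 6.98 to 9.32, 9.27 and 9.19. LEF1, a transcription factor of the pathway, rose by 1.17 ± 0.14, FZD5 by 1.10 ± 0.17, and RNF43, whose product removes Wnt receptors from the surface, fell by 1.33 ± 0.15. The whole Wnt list had 5 higher and 3 lower of 21. In the Notch list, with 3 higher and 4 lower of 16, the ligand genes JAG1 and DLL1 rose by 1.67 ± 0.14 and 0.92 ± 0.08, the receptor gene NOTCH2 rose by 1.29 ± 0.09, and the target gene HEY2 fell by 1.81 ± 0.13. Of 12 TGF-beta and BMP genes 2 were higher and 3 lower, where 10.1% of all named genes were higher and 12.5% lower. Counts this small say little about any of these pathways. BMP4, a secreted morphogen gene, fell by 1.81 ± 0.21, GDF15 by 0.82 ± 0.18 and the inhibitor gene SMAD6 by 0.78 ± 0.15, and SKIL, a corepressor of SMAD proteins, rose by 0.93 ± 0.14.

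The cell cycle lists moved little at 8 h. Of 25 G1/S and DNA replication genes 5 were higher and 0 lower, against 10.1% higher over all named genes, and at 16 h of MPA 14 were higher and 0 lower. With the compared arrays alone 3 were higher at 8 h. GINS2, a subunit of the replicative helicase, rose by 0.87 ± 0.10 and CCNE1, a cyclin that drives entry into S phase, by 0.87 ± 0.12, from 9.31, 9.17 and 9.13 to 10.13, 9.97 and 10.11. CCNE2 rose by 0.45 ± 0.09. CDC6, a replication licensing factor, rose by 0.55 ± 0.13 against the 8 h vehicle, yet by 0.23 (adjusted p = 0.152) against the mean of the vehicle overlays of 0, 4, 8 and 16 h. CCND1, the cyclin D1 gene, changed by 0.11 and did not pass. The call for 4 of 22 mitotic genes as lower and 1 as higher was not stable, since 1 was lower without the first MPA array or without the first vehicle array, and 2 without the second vehicle array, and 1 with the compared arrays alone. CDC25C, a phosphatase that starts mitosis, fell by 0.51 ± 0.12. The small changes of CDC20 (0.32), KIF20A (-0.26) and NUSAP1 (-0.24) missed the threshold when single arrays were left out. For CDC20 these were the first MPA or the third vehicle array (adjusted p = 0.0518 and 0.0501), for NUSAP1 the first MPA or first vehicle array (0.056 and 0.0671), and for KIF20A any array but the second MPA array (0.0532 to 0.128). Of the cyclin-dependent kinase inhibitors and pocket proteins, 4 were measured and RBL2 fell by 0.40 ± 0.09.

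Survival genes changed in opposite directions within the BCL2 family. Beside the fall of BCL2, the proapoptotic gene BCL2L11 rose by 1.37 ± 0.11, from 6.98, 6.93 and 6.93 to 8.30, 8.38 and 8.28. The antiapoptotic genes BCL2L1 and MCL1 rose by 0.92 ± 0.14 and 0.57 ± 0.09. In all 3 of 14 were higher and 2 lower, and 1 was lower without the first or the second MPA array or the first or the third vehicle array. Against the mean of the 4 vehicle overlays, where 13.8% of all named genes were higher and 15.4% lower, the counts were 6 and 2.

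Sterol and fatty acid synthesis was the metabolic list with most calls, 11 higher and 2 lower of 18 (median 0.36). DHCR7, which makes cholesterol in its last step, rose by 1.12 ± 0.07, from 10.27, 10.31 and 10.34 to 11.43, 11.48 and 11.38. FASN, the fatty acid synthase gene, rose by 0.78 ± 0.11, and INSIG2, a brake on sterol synthesis, fell by 0.89 ± 0.17. INSIG1, its sterol regulated paralog, rose by 0.76 ± 0.11 against the 8 h vehicle but by 0.14 (adjusted p = 0.372) against all vehicle overlays. Its mean was 9.83 under the 4 h vehicle and 8.93 under the 16 h vehicle, and the 8 h vehicle arrays read 8.67, 8.71 and 8.43. Against that pooled control the list had 10 higher and 2 lower and a median of 0.17.

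Among 19 lipid handling genes 7 were higher and 2 lower, with 10.1% higher and 12.5% lower over all named genes. SGPP2, a sphingosine phosphate phosphatase gene, rose by 2.13 ± 0.18, from 6.63, 6.54 and 6.45 to 8.65, 8.95 and 8.40. The fatty acid transporter gene CD36 fell by 1.10 ± 0.18 and the lipid droplet coat gene PLIN2 rose by 0.59 ± 0.09. The count of lower members was 1 without the second or the third MPA array or the first or the second vehicle array, 4 against the mean of the vehicle overlays and 5 with array weights. Glycolysis and hypoxia genes were higher in 8 of 13 and lower in 0, with 5 higher in a fit of the compared arrays alone. BNIP3, a mitophagy receptor gene, rose by 1.18 ± 0.07, HK2, the first enzyme of glycolysis, by 0.91 ± 0.12, and LDHA by 0.53 ± 0.12.

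Stress and rhythm genes also responded. JUN, a subunit of AP-1, rose by 1.74 ± 0.27, from 7.24, 7.08 and 7.07 to 8.89, 8.83 and 8.89, and FOS, its partner, by 0.91 ± 0.17, or by 0.57 as the mean of its clusters. FOSL1 rose by 0.96 ± 0.21 and the reprogramming factor gene KLF4 by 1.03 ± 0.08, and MYC was among the 2 lower members of the 18 measured at -0.62, with 1 lower without the first MPA array. Of 12 circadian clock genes 4 were higher and 2 lower, where 10.1% of all named genes were higher and 12.5% lower. PER1 rose by 1.23 ± 0.12 and CRY2 by 0.60 ± 0.10, both repressors in the clock loop, while the output factor genes DBP and HLF fell by 1.00 ± 0.15 and 0.59 ± 0.11. With the mean of all vehicle overlays as control, 7 clock genes were higher and 4 lower.

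Of 15 chemokine and inflammation genes 8 were lower and 1 higher (median -0.61), and 6 were lower without the first MPA array or without the first vehicle array (then with 0 higher). After CCL2, the interferon induced chemokine gene CXCL10 fell by 1.69 ± 0.36, from 7.54, 7.20 and 7.24 to 5.88, 5.97 and 5.04, and the epithelial chemokine gene CCL28 by 1.48 ± 0.20, from 8.37, 8.39 and 8.43 to 6.91, 6.94 and 6.91. The the third MPA array was the lowest for both CCL2 and CXCL10, while CCL28 had hardly any spread. CXCL2 (0.53) was the member that rose, and no member was higher without the first vehicle array. Of 6 measured interferon-induced genes 2 were higher and 1 lower, RIGI at 0.61 ± 0.12, IRF1 at 0.57 ± 0.14 and IFIH1 at -0.69 ± 0.14.

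Transport and metal binding genes were higher where they passed. Besides SGK1 the water channel gene AQP3 rose by 0.90 ± 0.19 and the kinase gene WNK1, a regulator of salt transporters, by 0.53 ± 0.09. This made 3 of 4 measured ion transport genes, out of 18 listed. Of 9 metallothioneins 4 were higher and 0 lower. MT1X rose by 1.72 ± 0.12, from 8.98, 9.01 and 8.84 to 10.66, 10.68 and 10.66, MT1F by 1.42 ± 0.08, MT2A by 1.03 ± 0.10 and MT1E by 0.66 ± 0.16. These genes are near-identical copies, so signal of a member may come from another.

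Genes of skin-type differentiation rose in part. Of 19 measured cornified envelope genes 4 were higher and 0 lower, against 10.1% higher and 12.5% lower over all named genes. SCEL, which encodes the envelope precursor sciellin, was not above background under vehicle (3.75, 3.31 and 3.39) and read 5.21, 5.56 and 4.80 under MPA, an increase of at least 1.62-fold (adjusted p = 1.91e-05). PPL, periplakin, rose by 0.98 ± 0.16 and CDSN, corneodesmosin, by 0.75 ± 0.16. LCE3D, a late envelope gene, read 4.52, 5.44 and 4.83 under vehicle and 6.27, 6.06 and 6.06 under MPA, and its rise of 1.20 ± 0.34 (adjusted p = 0.0113) did not pass without the first vehicle array (0.99, adjusted p = 0.0894). Involucrin and filaggrin, the defining envelope genes, did not pass (IVL -0.12, FLG 0.09).

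Of 12 keratins 3 were higher and 1 lower. KRT5, the basal keratin, rose by 1.29 ± 0.22, from 4.79, 5.24 and 5.04 to 6.47, 6.45 and 6.01, and the luminal KRT19 rose by 0.47 ± 0.10. KRT15 rose by 0.42 ± 0.09, and by 0.25 against the mean of the vehicle overlays, and KRT23 fell by 1.21 ± 0.18. KRT14, the partner of KRT5, was at 0.14 and did not pass. The basal and myoepithelial markers as a list had 3 of 6 measured higher and 0 lower, namely KRT5, EGFR and the peptidase gene MME (0.54 ± 0.13). Over all named genes 10.1% were higher and 12.5% lower. With the filter at the median, the compared arrays alone, array weights or the mean of all clusters of a gene, 1 member was lower. The log2 of their summed linear levels was 8.95 to 8.99 on the vehicle arrays and 9.83 to 9.84 on the MPA arrays. Without EGFR, a choice made after seeing the data, it was 8.28 to 8.42 and 8.39 to 8.51, so that the groups overlapped. OXTR (-0.36), MYLK (0.04) and KRT14 did not pass in the main fit. Whether more basal cells or more RNA of these genes per cell lay behind that sum cannot be told apart in bulk RNA. Of 3 fibroblast markers FN1 fell by 0.95 ± 0.12 and the other two did not pass.

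Junction genes gave 5 higher and 5 lower of 18, or 8 and 5 once array interquartile range was a covariate. All named genes gave 10.1% higher and 12.5% lower in the main fit. CLDN8, a claudin known from tight kidney and mammary epithelium, rose by 2.42 ± 0.16, from 6.43, 6.21 and 6.11 to 8.50, 9.15 and 8.35, and the plakophilin gene PKP2 by 1.04 ± 0.11. NRCAM, a neural adhesion molecule gene, fell by 2.09 ± 0.12, from 9.07, 8.98 and 8.98 to 6.76, 7.08 and 6.93. Among 17 G protein-coupled receptors 5 were higher and 6 lower, and after GPR139 the largest changes within that list, which does not hold every such receptor, were F2R, the thrombin receptor gene, at 1.62 ± 0.12, OXGR1, a receptor for oxoglutarate, at -1.09 ± 0.19, and ADRB1, an adrenergic receptor gene, at 1.05 ± 0.14.

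Developmental transcription factors beside SOX2 and ZBTB7C gave 6 higher and 5 lower of 19 in all. SNAI2, a regulator of epithelial plasticity, rose by 1.63 ± 0.23, from 5.67, 5.92 and 5.98 to 7.43, 7.56 and 7.46, and the forkhead gene FOXI1 fell by 1.52 ± 0.25. Of the PAM50 genes, used to assign breast cancer subtypes, 38 were measured. Of these 7 were higher and 12 lower, beside 10.1% and 12.5% of all named genes. The luminal members BCL2, PGR, ESR1 and FOXA1 were the 4 with the largest changes and all fell, ahead of EGFR and KRT5, which rose. Without the third vehicle array the counts were 4 and 11, and with the compared arrays alone 3 and 10. No subtype was assigned from these arrays.

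Of 11 heat shock genes and chaperones 3 were higher and 0 lower (median 0.00), FKBP5, the cochaperone gene BAG3 (1.01 ± 0.08) and HSPH1 (0.31 ± 0.07), and 6 were higher against the mean of the vehicle overlays. HSPA1A, the inducible heat shock gene, changed by 0.01. Of 11 unfolded protein response genes 2 were higher and 3 lower, and 1 was higher without any 1 of the 6 arrays. The shares over all named genes were 10.1% and 12.5%. CREB3L2, a membrane tethered transcription factor of the secretory pathway, rose by 1.02 ± 0.07, while CREB3L4 fell by 0.53 ± 0.09, XBP1 by 0.42 ± 0.11 and SESN2 by 0.42 ± 0.09. Of 5 reference genes only HPRT1 was called, at 0.34 ± 0.12 with an adjusted p of 0.0476. The call was lost without the second MPA array (0.22, adjusted p = 0.325) and without the first, second or the third vehicle array (0.0569, 0.2 and 0.0931), with the replicate block (0.0546), with no filter (0.065) and with the compared arrays alone (0.146).

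The 8 h point was then set between 4 and 16 h of MPA, each measured against its own vehicle overlay on other arrays. Of the 1356 genes higher at 8 h, 744 (54.9%) were also higher at 4 h, where 6.64% of all named genes were higher, and 954 (70.4%) at 16 h, where 11.0% were. Of the 1684 lower genes 588 (34.9%) were also lower at 4 h, against 6.65% of all, and 1166 (69.2%) at 16 h, against 14.5%. Higher at all 3 times were 575 genes and lower 428, while 233 and 358 were called in that direction at 8 h alone. Calls at separate times do not by themselves show that the effects differ, so the difference between times was tested as an interaction.

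The MPA effect at 8 h differed from that at 4 h for 480 clusters (1.16%) and 299 named genes (2.22%). Of genes higher at 8 h, 146 had a larger effect at 8 than at 4 h and 11 a smaller effect. Among genes lower at 8 h the counts were 101 and 7. Both sets were chosen by the 8 h arrays that also enter the difference, so the choice itself favours larger effects at 8 h. Over all named genes the difference was positive in 1.28% and negative in 0.936%. TFCP2L1 gained 1.34 ± 0.22 between the times (adjusted p = 0.000632), from a change of 1.95 at 4 h to 3.29. P3H2 gained 1.18 ± 0.23 (adjusted p = 0.00461), whereas the gain of MRAS, 1.06 ± 0.36, did not pass (adjusted p = 0.208). The fall of PGR deepened by 1.70 ± 0.18, from -0.63 at 4 h, that of BCL2 by 1.66 ± 0.24, and that of ESR1 by 1.31 ± 0.16, from -0.75. PLLP, a myelin and epithelial membrane protein gene, gained 1.57 ± 0.16 and the phospholipase gene PLB1 1.52 ± 0.18. The hair keratin gene KRT32 gained 1.65 ± 0.40 (adjusted p = 0.0269), with vehicle arrays at 5.21, 4.23 and 4.71. SCEL passed the interaction too, but its size cannot be given, because the means of both 4 h groups (3.26 and 3.40) and of the 8 h vehicle lay under 4.47, the lowest 30th percentile of any array.

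Some early responders had already passed their largest effect. FZD8 was down by 1.00 ± 0.14 from its 4 h change of 3.41, JAG1 by 0.80 ± 0.20 and DLL1 by 0.67 ± 0.12, GRHL1 by 0.69 ± 0.17, and the 4 h fall of SMAD6 had shrunk by 1.07 ± 0.21. DKK1, a secreted Wnt inhibitor gene, was the clearest case. Its MPA effect was 2.35 at 4 h and 0.26 ± 0.19 at 8 h (adjusted p = 0.497), a difference of -2.09 ± 0.27 (adjusted p = 1.66e-05), with vehicle arrays at 5.79, 6.01 and 5.80 and MPA arrays at 6.20, 6.04 and 6.11 at 8 h. Other large negative differences were not early peaks but falls that began or deepened after 4 h. The bombesin receptor gene GRPR had an effect of 0.19 at 4 h and of -1.78 ± 0.26 at 8 h, or -1.13 as the mean of its clusters. GLYATL3 differed by -1.82 ± 0.36 between the times, and its vehicle mean was 9.17 at 4 h and 7.62 at 16 h, with 8.30, 8.48 and 8.36 at 8 h.

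A few genes were called in opposite directions at 4 and 8 h. INSIG1, STARD4, MAP3K9 and GTF2IRD1 were lower at 4 h and higher at 8 h, and the first of these is the gene with a low 8 h vehicle described above. STARD4 (0.35) likewise read -0.01 against the mean of all vehicle overlays. The ubiquitin ligase gene SIAH2, STARD5, DIXDC1 and FITM2 were higher at 4 h and lower at 8 h, with 8 h changes between -0.39 (STARD5) and -0.22 (SIAH2).

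Between 8 and 16 h the effect changed for 441 clusters (1.07%) and 265 named genes (1.97%). P3H2 grew by a further 0.90 ± 0.23 (adjusted p = 0.0473), while TFCP2L1 (0.14 ± 0.22) and MRAS (-0.57 ± 0.36) gave no call. HS3ST6 lost 1.52 ± 0.19 and ZBTB7C 1.15 ± 0.23, and with the gain of each before 8 h they were among 13 higher genes whose effect was larger at 8 h than at both other times. The 5 such genes among the lower ones were EHF, LMO3, NAP1L5, SH3RF2 and CRYBG1, and EHF was at -0.37, -1.03 and -0.32 at 4, 8 and 16 h. In the other pattern, with a step at both intervals, stood 10 higher genes, P3H2, PLLP and SGPP2 among them with SCEL counted, and 15 lower genes, PGR, CXCL12, ERBB4, FN1, IGFBP5 and DSCAM-AS1 among them. PGR fell by a further 1.06 ± 0.18 to an effect of -3.40. Both differences contain the 8 h arrays, so a deviation of these arrays would enter the 2 patterns, and no test was made of the patterns as such.

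**Figure D4:**
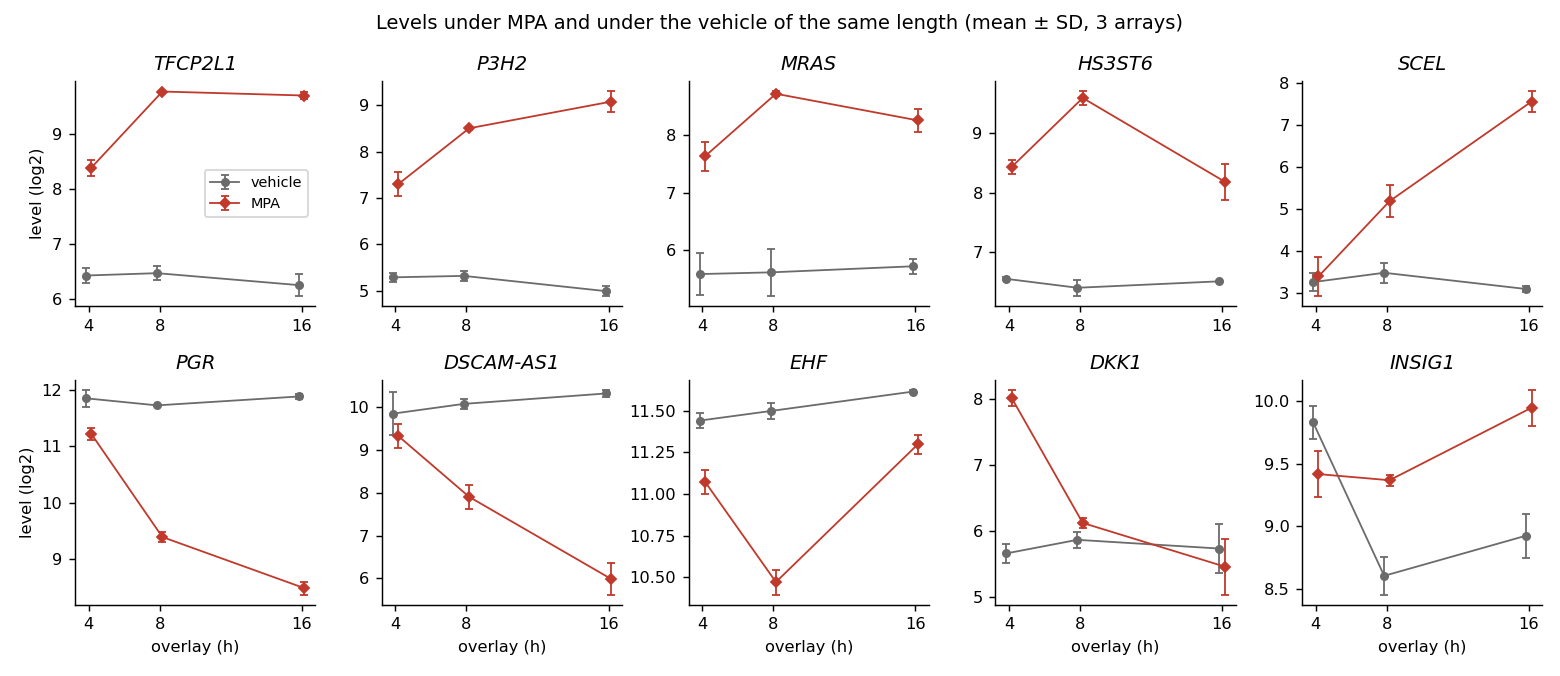
Mean level (log2, y axis, scaled per panel) ± SD of 3 arrays under MPA and under the vehicle of the same length after 4, 8 and 16 h (x axis) for 10 genes. TFCP2L1 is as far from vehicle at 8 as at 16 h, and P3H2 and PGR go on moving. HS3ST6 and EHF are furthest from vehicle at 8 h, and DKK1 at 4 h. The vehicle of INSIG1 is at 9.83 at 4 h and 8.93 at 16 h, and it is lowest at 8 h.

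After 8 h LCE3D gained 2.12 ± 0.48 toward 16 h. SCEL passed as well, with an MPA mean of 7.57 at 16 h, but its vehicle was not above background at 8 h and had a mean of 3.10 at 16 h, so no size is given. OTOGL, a relative of the inner ear protein otogelin, was at 0.15 ± 0.25 at 8 h (adjusted p = 0.819) and gained 1.59 ± 0.36, and ANKRD22, an ankyrin repeat gene, was at -0.41 ± 0.18 (adjusted p = 0.157, 0.0472 with array weights) and gained 1.55 ± 0.26. On the other side DSCAM-AS1 lost 2.16 ± 0.37, PDZK1 1.71 ± 0.26 and the adrenergic receptor gene ADRA2A 1.70 ± 0.29, all already lower at 8 h. For ADRA2A the 8 h fall of 0.67 ± 0.20 (adjusted p = 0.02) was not called without the first or the third MPA array (0.0707 and 0.0582) or the first or second vehicle array (0.0646 and 0.0774). RNF122, a ubiquitin ligase gene, rose by 2.12 ± 0.12 at 8 h and lost 1.59 ± 0.17 by 16 h.

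P4 was given at the same 10 nM dose for the same 8 h, so the 2 compounds can be set side by side, as 1 pair. A single cluster, without a name here, differed (0.00242% of those tested). It read 10.08, 10.05 and 10.01 under MPA, 9.51, 9.60 and 9.54 under P4 and 9.44, 9.42 and 9.36 under vehicle, a difference of 0.50 ± 0.06 (adjusted p = 3.11e-05). The MPA arrays were thus separate from both other groups. With the replicate number as a block 2 clusters passed, and the count was 0 with the compared arrays alone and 16 with array weights. The block was 1 effect per replicate number over all 14 groups, so it did not pair these 2 groups. No named gene passed limma's test, 0 of 13466. An unadjusted p under 0.05 in that test was found for 1183 clusters (2.86%) and 461 named genes. For clusters this is a smaller share than no difference at all would give at that threshold. Under other settings some named genes did pass, 5 higher and 5 lower with array weights and 1 and 2 with the interquartile range as a covariate. There were 1 and 1 after cyclic loess and 1 higher with the filter at the median.

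A test that was not passed does not show that the compounds act alike, so the intervals matter. The 95% interval of the difference had a median half-width of 0.256 over named genes. Of the 385 genes that MPA changed at least 2-fold, 383 had an interval within 1 log2 unit of 0 and 267 within 0.5. For 50 of them the interval left out 0 without correction for the number of genes. The MPA arrays that chose these genes also enter the difference, so their deviations can widen it and raise that count. TFCP2L1 read 9.62, 9.76 and 9.68 under P4, and MPA minus P4 was 0.08 ± 0.16 (interval -0.24 to 0.40). P3H2 differed by 0.12 ± 0.17 (-0.22 to 0.46) and MRAS by 0.38 ± 0.25 (-0.14 to 0.89), the last with P4 arrays at 8.09, 8.52 and 8.43. For PGR the difference was -0.08 ± 0.13 (-0.34 to 0.18), for EGF 0.04 ± 0.10 (-0.16 to 0.24) and for EGFR 0.17 ± 0.11 (-0.05 to 0.39).

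The largest difference among these 385 genes, again chosen by the MPA arrays, was that of FHOD3, which encodes a formin that assembles actin. It read 5.82, 5.89 and 5.93 under vehicle, 7.18, 6.85 and 6.85 under MPA and 6.27, 6.25 and 6.23 under P4, so that the 3 groups did not overlap. The difference of 0.71 ± 0.13 between the compounds had an adjusted p of 0.0522. STEAP4 differed by 0.48 ± 0.20 (0.08 to 0.88) and SLFN5 by -0.41 ± 0.16 (-0.73 to -0.10), both with an adjusted p of 1. IL20, a cytokine gene that MPA did not change at 8 h by the test (-0.33 ± 0.18), read 7.15, 7.06 and 6.99 under MPA and 8.01, 7.99 and 7.93 under P4, with vehicle between at 7.58, 7.30 and 7.30. Its difference of -0.91 ± 0.18 had an adjusted p of 0.143.

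**Figure D5:**
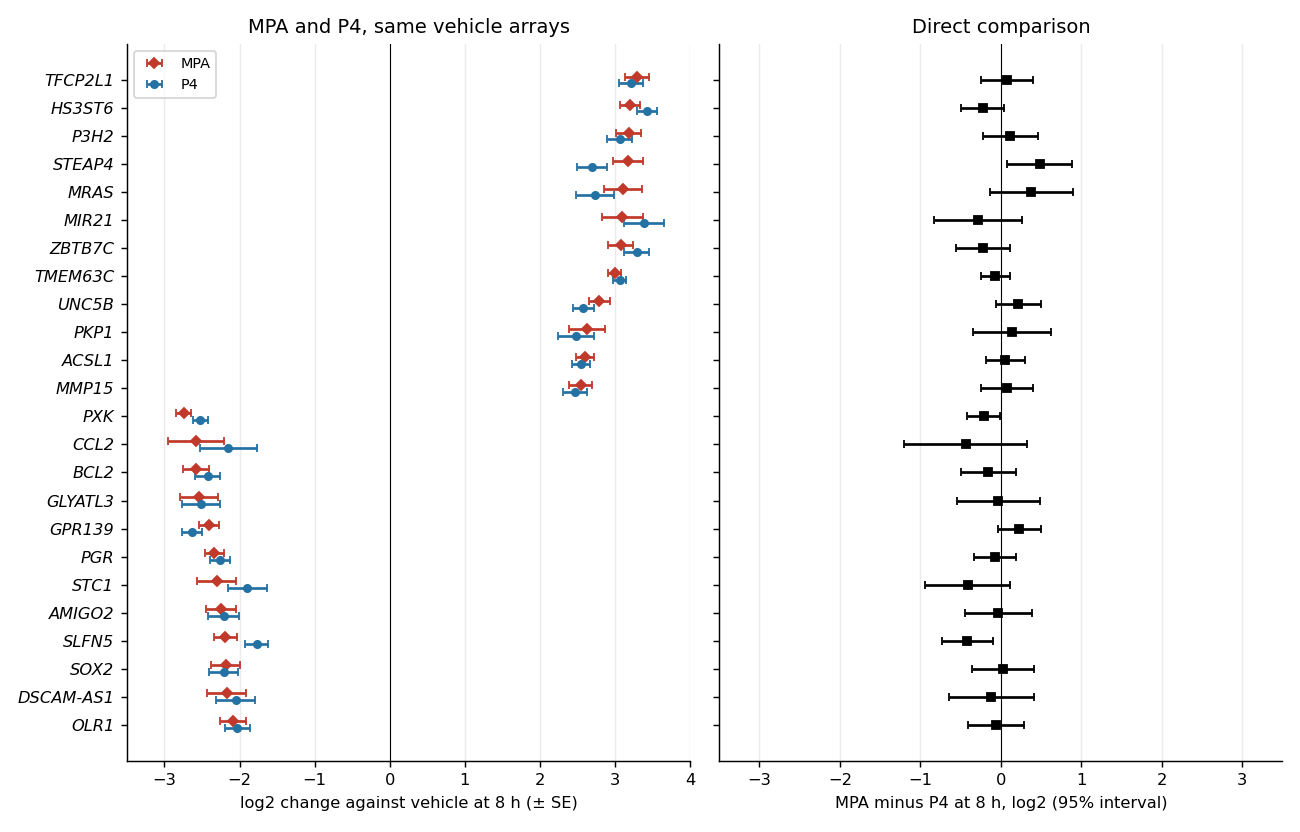
Left, change against the shared 8 h vehicle arrays (log2 ± SE, x axis) for MPA and for P4 in the 24 leading genes, and right, MPA minus P4 (log2) with its 95% interval. Intervals of STEAP4 (0.08 to 0.88), SLFN5 (-0.73 to -0.10) and PXK (-0.42 to -0.01) leave out 0 without correction, and the remaining intervals shown include 0. The MPA arrays that enter the difference also chose these genes.

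Promoter sequence was read from RefSeq (GRCh38.p14) for the 10075 tested genes that matched by symbol, 250 bases before to 50 after the first listed start, to show whether letters of the hormone response element lie at the start of genes that moved. The element is an inverted repeat, searched as GNACA, any 3 bases and TGTNC (N is any base), which reads alike on both strands. It was present in 0.388% of all 27305 promoters, in 0.208% of the tested genes, in 2 of 1083 genes that were higher (0.185%) and in 3 of 1367 that were lower (0.219%). The 6 bases AGAACA, or TGTTCT on the other strand, which can overlap the longer motif, were in 9.89% of tested genes, 7.2% of higher and 9.51% of lower genes. Among genes that changed at least 2-fold, the longer motif was in 1 of 196 higher (0.51%) and 1 of 106 lower genes (0.943%) and the shorter in 10.2% and 11.3%. The shares of the longer motif among genes that changed rest on 1 to 3 genes each. No match says only that these letters are not in this window.

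The promoter of TFCP2L1 (chr2:121285153-121285452, minus strand) is printed as that of the leading gene and held neither motif.
TFCP2L1: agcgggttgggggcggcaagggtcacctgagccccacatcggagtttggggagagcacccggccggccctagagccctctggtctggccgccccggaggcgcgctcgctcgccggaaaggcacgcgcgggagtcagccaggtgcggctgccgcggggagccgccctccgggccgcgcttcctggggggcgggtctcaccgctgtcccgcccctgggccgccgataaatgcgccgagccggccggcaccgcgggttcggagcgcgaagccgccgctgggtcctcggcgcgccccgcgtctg

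The promoters of the 2 genes changed at least 2-fold that hold the longer motif are printed with the motif in capitals. MAP3K6, a stress kinase gene, rose by 1.09 ± 0.09, from 9.11, 9.14 and 8.94 to 10.19, 10.12 and 10.15, and its motif starts at position -152 (chr1:27366912-27367211, minus strand). EPHA4, an ephrin receptor gene, fell by 1.64 ± 0.15, from 7.73, 7.73 and 7.85 to 6.25, 6.26 and 5.89, with the motif at -56 (chr2:221574153-221574452, minus strand, the first of 2 listed starts). Both were named after their values were seen, and their opposite directions stand beside the same letters.
MAP3K6: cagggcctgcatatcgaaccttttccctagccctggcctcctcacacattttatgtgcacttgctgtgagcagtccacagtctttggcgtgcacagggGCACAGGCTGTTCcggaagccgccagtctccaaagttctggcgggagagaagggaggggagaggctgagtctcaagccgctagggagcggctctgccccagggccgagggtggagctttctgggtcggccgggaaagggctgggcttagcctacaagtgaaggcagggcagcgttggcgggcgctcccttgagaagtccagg
EPHA4: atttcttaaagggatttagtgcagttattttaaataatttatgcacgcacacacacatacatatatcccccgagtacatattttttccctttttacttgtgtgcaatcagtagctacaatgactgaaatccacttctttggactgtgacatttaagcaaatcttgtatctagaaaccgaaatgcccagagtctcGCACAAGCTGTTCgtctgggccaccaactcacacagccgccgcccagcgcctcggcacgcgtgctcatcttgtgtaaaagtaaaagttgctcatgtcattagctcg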

How the data were processed

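Transcript levels were measured on Affymetrix Gene ST arrays, and the authors deposited 1 RMA normalized log2 value per transcript cluster and array (RMA removes background, equalises quantiles and summarises probes). The labels name the Gene 1.0 ST design, whereas cluster identifiers matched the Gene 2.0 ST annotation, from which 16098 of 53617 clusters had a symbol. Clusters above the 30th percentile of their array on at least 3 arrays were tested. Means of all 14 groups were fitted with limma 3.58.1 in R 4.3.3 (44 arrays, 30 residual degrees of freedom), with two-sided moderated tests and Benjamini-Hochberg adjustment over all tested clusters. Errors are SE of the fit, and 95% intervals carry no multiplicity correction. The 8 h change of a gene under the 30th percentile on every array of a group is given as a bound. The number of arrays limits the precision. Same-numbered MPA and P4 arrays at 8 h deviated together (r = 0.274, 0.175 and 0.128), and the blocked count is given there. That block is common to all 14 groups, so the shared deviation of this pair was not itself modelled. The 156 genes named by rule were TFCP2L1, P3H2 and MRAS, the 12 largest changes in each direction, up to 4 regulated members of each of 43 lists, 6 fixed genes and the 4 largest in each direction of the interactions. Members and lists were chosen with earlier results of these data known. Scripts were tested on simulated data.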

Additional observations from a re-analysis of the deposited data

Results flagged for a closer look

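The MPA effect differed between 8 and 4 h at 480 clusters and between 16 and 8 h at 441 clusters, each tested as an interaction of treatment and time. Between 4 and 8 h it grew by 1.65 for KRT32, 1.57 for SCEL, 1.57 for PLLP and 1.52 for PLB1 on the log2 scale, and moved by -2.09 for DKK1, -1.96 for GRPR, -1.82 for GLYATL3 and -1.70 for PGR. Between 8 and 16 h it grew by 2.76 for SCEL, 2.12 for LCE3D, 1.59 for OTOGL and 1.55 for ANKRD22, and moved by -2.16 for DSCAM-AS1, -1.71 for PDZK1, -1.70 for ADRA2A and -1.59 for RNF122. The values of SCEL, 1.57 and 2.76, are those of the fit and no measured sizes, since its vehicle means lay under 4.47, the lowest 30th percentile of any array, at all 3 times and its MPA mean did so at 4 h. Groups of 3 arrays were not checked gene by gene for an outlying array, but limma's array weights were lowest for the first 4 h vehicle array (0.199) and for the third 16 h vehicle array (0.34), both controls in these interactions.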

How the results depend on the processing

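Against vehicle at 8 h the count of regulated clusters was 5901, between 4561 and 5019 when an array was left out, 4455 with the compared arrays only, 7824 with array weights, 7825 against the mean of the vehicle overlays, and 1785 (1040 higher) at an adjusted p of at most 0.0001. The higher share was 44.2% (2608) and, after cyclic loess, 2958 of 6097. With the replicate number as a block 5893 clusters passed, and same-numbered MPA and vehicle arrays shared no deviation (r = -0.002, 0.015 and 0.066), so the numbers pair nothing there. For MPA against P4 the count was 1, 2 with the filter at the median, 0 with the compared arrays only, 16 with array weights, 4 with the interquartile range as a covariate, 3 after cyclic loess, 2 with the replicate block, and 1 to 1 when an array was left out. The effect at 8 against 4 h gave 480 clusters, 82 with the compared arrays only, 1007 with weights, 783 with the interquartile range and 322 to 576 leaving out an array. That of 16 against 8 h gave 441, and 152, 1046, 756 and 303 to 418. The 8 h vehicle against the other vehicle overlays gave 59, and 12, 354, 195 and 25 to 89 in that order, 94 after cyclic loess, with the low values without any of the 8 h vehicle arrays (28, 25 and 28) and the high value without the first 4 h vehicle array. The cause of these differences was not tested. Over 16 settings the 156 named genes gave 2495 values, of which 2451 kept direction and side of the threshold, 42 lost the call, 2 gained it (DKK1, 0.42, adjusted p = 0.0482, against the mean of the vehicle overlays, and ANKRD22 with weights) and 0 reversed. Besides the genes given in the report, HSPH1 (adjusted p = 0.059) and CDC6 (0.0607) lost the call with the compared arrays only. List counts were recomputed under every setting, a choice made after seeing the data. Of 145 regulated genes with further clusters, 1, KIF1B, had clusters called in opposite directions. Genes near background, 21 in a single group, give only bounds.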

Other observations

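Among regulated genes, 3 runs of at least 3 neighbouring measured genes changed by 0.8 or more in the same direction, a rule set after the values were seen and given with no test. On chromosome 6 the run held ESR1 with its neighbours CCDC170 (-2.07 ± 0.23) and RMND1 (-1.86 ± 0.15). CCDC170 went from 8.93, 9.02 and 9.01 under vehicle to 6.59, 7.01 and 7.14 under MPA, and RMND1 from 8.76, 8.68 and 8.60 to 6.63, 6.93 and 6.91, so both groups were separate. On chromosome 5 it held MCIDAS (-1.67 ± 0.16), CCNO (-1.64 ± 0.19) and MIR449C (-1.22 ± 0.19), genes of a locus known for multiciliated cell differentiation. CCNO went from 8.93, 8.79 and 8.83 to 7.21, 7.35 and 7.06. On chromosome 8 it held CHMP7 (1.88 ± 0.14), a nuclear envelope repair gene, TNFRSF10A-DT (1.47 ± 0.13) and RHOBTB2 (1.70 ± 0.15), an atypical GTPase gene.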
